A study of Mus musculus with 2 samples.

Results

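Basement membranes are thin sheets of matrix that underlie epithelial and endothelial cells and wrap mural cells. Laminins, which polymerise into one of their networks, are trimers of an alpha, a beta and a gamma chain, nidogens link that network to type IV collagen, and the heparan sulfate proteoglycans perlecan (Hspg2) and agrin (Agrn) bind to it. In the kidney such sheets surround tubules, capillaries and glomeruli, and cells on both sides of a sheet can contribute its proteins. The genes described here are 10 of the 53698 gene entries of the deposited matrices: the laminin chains Lama2, Lama4, Lama5, Lamb1, Lamb2 and Lamc1, the nidogens Nid1 and Nid2, and Hspg2 and Agrn. They were chosen by symbol, and all 10 were found.

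The transcripts were counted in kidney cells of FVBN mice that were sorted for PDGFR alpha and beta, receptors found on fibroblasts and mural cells, and read cell by cell at the 3′ end of transcripts in droplets with 10x Chromium version 2 reagents. There was 1 library labelled UUO (ureter of 1 kidney tied off, which leads to kidney fibrosis, taken 10 days later) and 1 labelled sham; the labels give the series' purpose as profiling these cells in healthy and fibrotic kidneys. The sources used here state neither age, sex nor how many animals a library came from. A group is 1 library, so differences have no replicate check and no test was made between groups or classes, and every interval is an exact 95% interval that covers counting error only.

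The library labelled UUO held 6023072 unique molecular identifiers (UMIs) over 1291 barcodes, and the library labelled sham 85359332 over 10812, with 16 barcodes in both. After filtering, 1043 and 9748 cells were kept, with medians of 4119 and 7709.5 UMIs. Levels are given as CPM, UMIs per 1000000 UMIs of the class. Some fibroblast transcripts that are known to go with injury ran with the labels and some against them: Spp1 was at 170.2 CPM in fibroblasts of the library labelled UUO and 13285 CPM in those labelled sham, Timp1 at 69.4 against 724, Acta2 at 304 against 1547 and Col1a1 at 1592 against 2375. Ctgf was at 681 CPM in fibroblasts labelled UUO and 182.0 CPM in those labelled sham, Postn at 157 against 78.0 and C3 at 619 against 34.1. Whether the labels of the 2 libraries were exchanged was not tested; if they were, every direction given between the libraries would turn round. Both groups are therefore named as labelled, and none of the differences between them is read as caused by obstruction.

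Cells were sorted into classes by the UMIs of marker genes, none of which is among the 10. A cell met a class with at least 3 markers detected and at least 20 marker UMIs per 10000. This gave 110 endothelial, 36 mural, 107 tubule and 659 fibroblast cells in the library labelled UUO, and 468, 61, 231 and 8419 in the library labelled sham. The tubule class differed in makeup: 91 of its 107 cells were proximal in the library labelled UUO, against 22 of 231 in the library labelled sham, where 207 were of the loop of Henle and distal segments. Tubule cells are therefore set against each other between libraries only by segment. The mural class was led by the renin gene Ren1, at 8219 CPM in the library labelled UUO and 15369 CPM in the library labelled sham, with the smooth muscle gene Myh11 at 755 and 102 CPM.

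Transcripts of fibroblasts were found in all other classes, and the part of free RNA and of undetected doublets in this was not tested. The 8 fibroblast markers summed to 3664 CPM in endothelial, 5260 in mural, 3824 in tubule and 22134 in fibroblast cells of the library labelled UUO. Where labelled sham, they summed to 3746, 8557, 1257 and 12196 CPM in the same classes. The 386 leukocytes of the library labelled sham, blood-derived cells that are not among the main sources of basement membranes, had 4246 CPM of these markers, 34.8% of the fibroblast level, against 30.7% in endothelial, 70.2% in mural and 10.3% in tubule cells of that library. Their levels of the 10 genes serve below as a point of comparison; they may include transcripts of their own, and the classes carry unequal amounts of fibroblast transcripts. The library labelled UUO held 6 leukocytes with 17492 UMIs in all, too few to give such a level.

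The 3 laminin alpha chains divided by class where the library was labelled sham: Lama2 was the main one of fibroblasts, Lama4 and Lama2 had like shares in endothelial cells, and Lama5 was the main one of loop and distal tubule cells. The library labelled UUO showed the same leading chain in fibroblasts, but there Lama2 also led in endothelial and proximal tubule cells. The proximal cells had 14 Lama2 UMIs of 18 labelled UUO, and 3 Lama2 and 3 Lama5 UMIs of 11 labelled sham. Loop and distal tubule cells labelled UUO had 3 Lama2 and 3 Lama5 UMIs of 6, too few to name a leading chain. Because reads come from the 3′ end and are not scaled for length, these shares are of UMIs, not of protein.

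Lama2, the alpha chain of the laminin of muscle and stroma, was at 115 CPM in fibroblasts of the library labelled UUO (104 to 126) and 91.6 CPM in those labelled sham (89.3 to 93.9). Mural cells were close to fibroblasts, at 90.9 and 88.2 CPM in the libraries labelled UUO and sham. Endothelial cells stood at 74.9 CPM in the library labelled UUO and 43.2 CPM in the library labelled sham, where leukocytes had 46.8 CPM. Endothelial Lama2 in the library labelled sham was thus not separated from the leukocyte level (ratio 0.922, 0.686 to 1.24), and it was 0.472 of the fibroblast level (0.381 to 0.577). The log2 ratio of Lama2 to fibroblasts depended on how endothelial cells were set: it was -0.06 at 10 marker UMIs per 10000, which took in 1071 cells, and -2.34 without the cells that had more fibroblast than endothelial marker UMIs, which left 372.

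Lama4, the alpha chain typical of endothelial and stromal laminins, was highest in endothelial cells of the library labelled sham, at 45.9 CPM (37.4 to 55.7), against 27.03 CPM in fibroblasts and 8.56 CPM in leukocytes. The ratio of endothelial cells to fibroblasts there was 1.70 (1.38 to 2.07). Its direction rested on the marker level: the log2 ratio was 0.67, and -0.16 at 10 marker UMIs per 10000. Endothelial cells of the library labelled UUO had 23.0 CPM from 12 UMIs (11.9 to 40.2) and fibroblasts 31.7 CPM (26.4 to 37.7), intervals that overlap. Endothelial Lama4 in the library labelled UUO was 0.502 of that labelled sham (0.251 to 0.916). In loop and distal tubule cells no Lama4 UMI was found in the 16 cells of the library labelled UUO, which allows a level of up to 48.8 CPM, and 6 UMIs gave 2.51 CPM in the library labelled sham.

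Lama5, the alpha chain of mature tubule, glomerular and vessel basement membranes, was low in fibroblasts, at 4.53 CPM in the library labelled UUO and 3.56 CPM in the library labelled sham. Loop and distal tubule cells of the library labelled sham had 36.9 CPM (29.6 to 45.4), and endothelial cells 21.1 CPM (15.5 to 28.1). Leukocytes had 2 UMIs, or 1.01 CPM. Where labelled UUO, the loop and distal tubule level of 48.8 CPM rested on 3 UMIs (10.1 to 143), and the endothelial level of 15.4 CPM on 8 (6.63 to 30.3). Proximal tubule cells had 4.56 CPM from 2 UMIs and 14.9 CPM from 3 UMIs in the libraries labelled UUO and sham. The ratio of all tubule cells to fibroblasts was 9.84 (7.65 to 12.6) in the library labelled sham, and that of endothelial cells 5.93 (4.25 to 8.14). For the library labelled UUO the endothelial ratio was 3.39 (1.28 to 8.20) and the tubule ratio 2.21 (0.641 to 6.18), an interval that holds 1.

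Counted as shares of the 3 alpha chains, Lama2 made 76.0% of alpha-chain UMIs in fibroblasts of the library labelled UUO (72.4 to 79.4) and 75.0% in those labelled sham (74.0 to 75.9). In endothelial cells Lama4 made 20.3% in the library labelled UUO (10.98 to 32.8) and 41.6% in the library labelled sham (35.4 to 48.1). Both shares include cells with more fibroblast than endothelial marker UMIs, and shares without them are not given here. In loop and distal tubule cells of the library labelled sham Lama5 made 71.5% of 123 UMIs (62.7 to 79.3). The same cells of the library labelled UUO had 6 alpha-chain UMIs, 3 of them Lama5. Leukocytes of the library labelled sham had a makeup near that of fibroblasts, with 83.0% Lama2 (74.8 to 89.5) and 1.79% Lama5 (0.217 to 6.30).

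**Figure D1:**
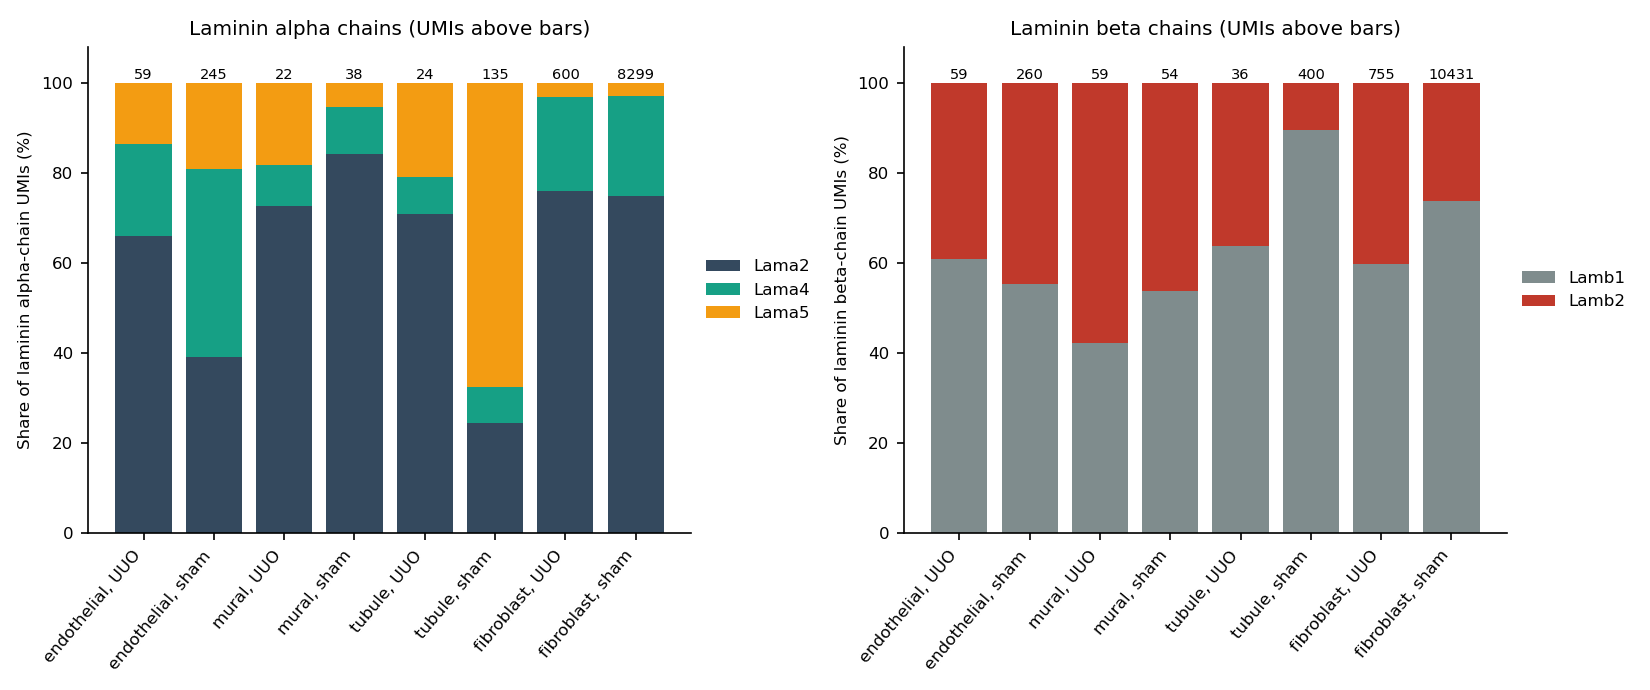
Share of UMIs (percent) among the laminin alpha chains (left panel) and beta chains (right panel) in each class, the bar of the library labelled UUO left of that labelled sham, with the number of UMIs above each bar. Lama2 fills 76.0% and 75.0% of the fibroblast bars, and Lama5 20.8% and 67.4% of the tubule bars, which hold mostly proximal cells in the library labelled UUO and mostly loop and distal cells in the library labelled sham.

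Of the 2 beta chains, Lamb1 had the larger share of UMIs in endothelial, tubule and fibroblast cells of both libraries. Its interval did not exclude equal shares in endothelial cells labelled UUO (47.4 to 73.5) and sham (49.1 to 61.5). The same held in tubule cells labelled UUO (46.2 to 79.2). Without cells with more fibroblast than endothelial marker UMIs, the log2 ratio of endothelial Lamb1 to fibroblasts, UUO, went from -0.68 to -1.95. Beta-chain shares without them are not given here. In mural cells Lamb1 made 42.4% in the library labelled UUO (29.6 to 55.9) and 53.7% in the library labelled sham (39.6 to 67.4). Lamb2 had its highest level in mural cells, though in the library labelled sham their interval overlapped that of endothelial cells. Lamb1, the more widespread beta chain, was at 113.4 CPM in fibroblasts of the library labelled UUO and 113.2 CPM in those labelled sham (ratio 1.00, 0.909 to 1.10). Loop and distal tubule cells of the library labelled sham had more, 146 CPM (131 to 162), and leukocytes 51.3 CPM. Mural cells had the highest Lamb1 level of the library labelled UUO, 142 CPM from 25 UMIs (91.9 to 210), which overlaps the fibroblast interval (103 to 124). This rank was lost without cells with more fibroblast than mural marker UMIs, which left 24 of 36. There the log2 ratio of mural Lamb1 to fibroblasts was -1.42, against 0.31 with all of them. Endothelial cells had 69.1 CPM in the library labelled UUO and 64.8 CPM in the library labelled sham, and the value labelled sham was 1.26 times that of leukocytes (0.972 to 1.64).

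Lamb2, the beta chain of vessel and mature glomerular basement membranes, had its highest level in mural cells of both libraries. There it was at 193 CPM in the library labelled UUO (134 to 270) and 68.9 CPM in the library labelled sham (44.6 to 102). Endothelial cells had 44.1 CPM labelled UUO (28.0 to 66.2) and 52.2 CPM labelled sham (43.1 to 62.6). The mural and endothelial intervals labelled sham overlap, so mural cells are not set above endothelial cells there. Fibroblasts had 76.4 CPM (68.1 to 85.5) and 40.4 CPM (38.9 to 41.9) in the libraries labelled UUO and sham. Mural cells thus had 2.53 times the fibroblast level in the library labelled UUO (1.72 to 3.61) and 1.71 times in the library labelled sham (1.10 to 2.52). The excess labelled sham rested on the marker level: the log2 ratio was 0.70, and 0.005 at marker level 10 per 10000. Without cells with more fibroblast than mural marker UMIs it was 1.07. In the library labelled UUO the log2 ratio was 1.28, and 1.13 at the same marker level of 10. In tubule cells Lamb2 was low: 26.0 CPM in the library labelled UUO, and 16.2 CPM in the library labelled sham against 20.1 CPM in leukocytes. As a share of beta-chain UMIs, Lamb2 made 57.6% in mural cells of the library labelled UUO and 46.3% in those labelled sham. In fibroblasts it made 40.3% in the library labelled UUO (36.7 to 43.9) and 26.3% in the library labelled sham (25.4 to 27.1). In tubule cells of the library labelled sham it made 10.5% of 400 UMIs (7.67 to 13.9).

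Lamc1, the gamma chain of nearly all these trimers, was at 78.7 CPM in fibroblasts of the library labelled UUO and 52.9 CPM in those labelled sham. Endothelial cells had 42.2 CPM (26.5 to 63.9) in the library labelled UUO and 66.1 CPM (55.9 to 77.7) in the library labelled sham. Endothelial Lamc1 was thus below the fibroblast level in the library labelled UUO (ratio 0.537, 0.332 to 0.827) and above it in the library labelled sham (1.25, 1.05 to 1.48). Tubule cells had 10.0 CPM and 20.4 CPM in the libraries labelled UUO and sham, and the level labelled sham was 0.738 of the 27.7 CPM in leukocytes (0.496 to 1.10), an interval that holds 1.

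Nid1, the more abundant nidogen by UMIs, was highest in fibroblasts of both libraries, at 250.1 CPM in the library labelled UUO (235 to 266) and 188 CPM in the library labelled sham (185 to 191). Endothelial cells followed at 178 CPM and 174 CPM in the libraries labelled UUO and sham. In the library labelled sham they were not separated from fibroblasts (ratio 0.926, 0.835 to 1.02) and were 1.76 times leukocytes (1.48 to 2.11). Both depended on cells with more fibroblast than endothelial marker UMIs. Without those cells the log2 ratio to fibroblasts went from -0.11 to -0.65, and that to leukocytes from 0.79 to 0.25. Mural cells had 79.5 CPM in the library labelled UUO (43.5 to 133) and 138 CPM in the library labelled sham (102 to 182). Loop and distal tubule cells of the library labelled sham had 29.3 CPM, against 98.7 CPM in leukocytes; the fibroblast markers were at 1171 CPM in the same tubule cells and 4246 CPM in leukocytes.

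Nid2, the second nidogen, was at 46.0 CPM in fibroblasts of the library labelled UUO and 36.4 CPM in those labelled sham, and at 42.2 and 33.7 CPM in endothelial cells of the same libraries. Its share of nidogen UMIs was near constant in fibroblasts, 15.5% in the library labelled UUO (13.5 to 17.7) and 16.2% in the library labelled sham (15.6 to 16.8). Loop and distal tubule cells of the library labelled UUO stood apart, with 195 CPM (100.9 to 341) against 5.03 CPM (2.60 to 8.78) in the library labelled sham. Each of these levels rests on 12 UMIs, in 7 of 16 cells of the library labelled UUO and 12 of 207 of the library labelled sham. The ratio was 38.8 (15.96 to 94.5), and was singled out after its value was seen. Nid2 overlaps Rtraf by 437 bases at its 3′ end, on the opposite strand, and the sources used here do not say whether counting used strand. Rtraf was at 309 CPM from 19 UMIs in these cells of the library labelled UUO and 295 CPM from 704 UMIs in those labelled sham. Its part in the Nid2 counts was not tested.

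Hspg2, which codes for perlecan, was highest in endothelial cells of the library labelled sham, with 167 CPM (151 to 185) against 85.6 CPM in fibroblasts and 41.8 CPM in leukocytes. A UMI of Hspg2 was found in 48.7% of these endothelial cells (44.1 to 53.4) and 17.6% of leukocytes (14.0 to 21.8), at median depths of 4043.5 and 4848.5 UMIs, and in 45.3% of fibroblasts (44.2 to 46.4) at 8136. Thinned to 1000 UMIs a cell, the shares were 15.5% of 446 endothelial cells and 4.23% of 355 leukocytes, with 22 and 31 shallower cells left out, and 9.03% of 8247 fibroblasts, with 172 left out. Endothelial cells of the library labelled UUO had 88.3 CPM (64.6 to 118) and fibroblasts 71.6 CPM (63.6 to 80.5), intervals that overlap. Mural cells of the library labelled sham had 35.8 CPM, 0.419 of fibroblasts (0.223 to 0.717) and not separated from leukocytes. Mural cells of the library labelled UUO had 68.2 CPM from 12 UMIs (35.2 to 119).

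Agrn, which codes for agrin, was highest in tubule cells of the library labelled sham, at 98.1 CPM (85.9 to 111) in the loop and distal segments and 49.7 CPM (23.9 to 91.5) in the proximal ones. Endothelial cells there had 45.0 CPM, mural cells 38.6 CPM, fibroblasts 20.3 CPM and leukocytes 10.6 CPM. A UMI of Agrn was found in 52.2% of the loop and distal tubule cells (45.1 to 59.2) and 5.44% of leukocytes (3.40 to 8.20), at median depths of 9885 and 4848.5 UMIs, and in 8.42% and 1.13% after thinning to 1000 UMIs. Loop and distal tubule cells also had the highest Agrn level of the library labelled UUO, 65.1 CPM from 4 UMIs (17.7 to 167), which was 0.664 of that labelled sham (0.179 to 1.72). Proximal tubule cells of the library labelled UUO had 15.96 CPM from 7 UMIs (6.42 to 32.9) and fibroblasts 14.3 CPM (10.9 to 18.6), which were not separated.

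Set against leukocytes of the library labelled sham, where a gene counts as higher from 2-fold after adding 5 CPM to both levels and is tested from 10 CPM in either, endothelial cells were higher for 7 of the 10 genes, beside 10.9% of all 9530 genes tested. These were Lama4, Lama5, Lamb2, Lamc1, Nid2, Hspg2 and Agrn, with ratios from 2.39 for Lamc1 to 21.0 for Lama5. Lama2, Lamb1 and Nid1, the other 3, had ratios of 0.922, 1.26 and 1.76. The median log2 ratio of the 10 was 1.15, against 0.26 over all genes tested. The count depended on how endothelial cells were set: at 10 marker UMIs per 10000 the class grew to 1071 cells and the count was 0, and at 40 it held 381 cells and the count was 8. The shares of all genes called at those marker levels are not given here. None of the 10 was lower, beside 6.67% of genes.

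Tubule cells of the library labelled sham were higher than leukocytes for 3 of 9 tested genes, beside 15.3% of 10029 genes. Agrn had a ratio of 8.89 (5.69 to 14.6), Lamb1 of 2.69 (2.15 to 3.38) and Lama5 of 34.8 (9.37 to 292), the last against 2 leukocyte UMIs. Lama2 and Nid1 were lower, at ratios of 0.272 and 0.316, beside 12.8% of genes; the fibroblast markers were lower too, at 1257 CPM in tubule cells and 4246 CPM in leukocytes, and their part in this was not tested. The lower calls were lost under 3 of 16 alternatives for Lama2 and 2 for Nid1. The count of higher genes was 2 or 3 under every alternative tried. Mural cells were higher for 3 of 9, beside 11.5% of 9506 genes: Lamb2 (3.42, 1.99 to 5.78), Agrn (3.65, 1.72 to 7.53) and Nid2 (2.43, 1.12 to 4.97). None was lower, beside 10.2%. The fibroblast markers were at 8557 CPM in these mural cells and 4246 CPM in leukocytes, and their part in the 3 differences was not tested. The Nid2 difference of mural cells had a log2 ratio of -0.19 once cells with more fibroblast than mural marker UMIs were left out, which kept 39 of 61.

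Fibroblasts of the library labelled sham had higher levels of all 10 genes than leukocytes, with ratios from 1.91 for Nid1 to 3.54 for Lama5, whose interval alone holds 1 (0.969 to 29.4). After adding 5 CPM, Lama4, Lamb1 and Nid2 passed 2-fold, 3 of 9 beside 7.28% of 9171 genes, with none lower beside 8.45%. Most ratios lay near 2, and this count ran from 0 to 8 over the alternatives. The fibroblast markers themselves were at 34.8% of the fibroblast level in leukocytes.

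**Figure D2:**
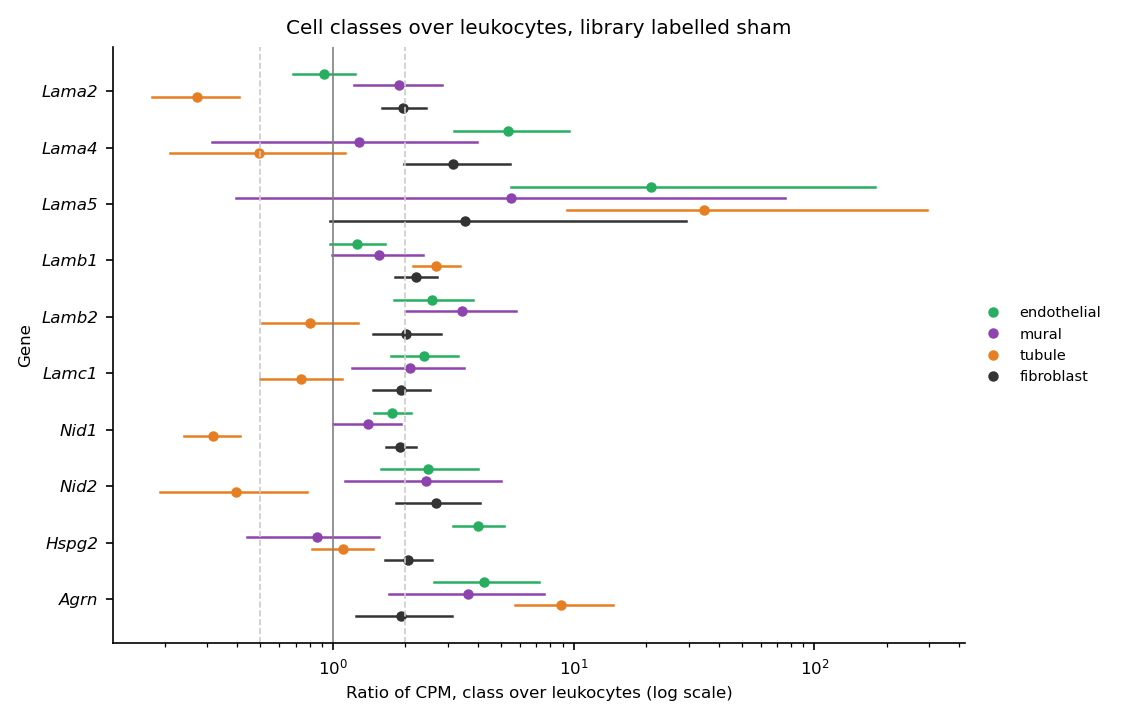
Ratio of the level in each class to that in leukocytes, library labelled sham, on a log axis, with exact 95% intervals as lines, a solid line at 1 and dashed lines at 0.5 and 2. Agrn and Lama5 of tubule cells lie far to the right (8.89 and 34.8), Lama2 and Nid1 of tubule cells to the left (0.272 and 0.316), and the fibroblast points lie between 1.91 and 3.54.

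The promoters of the 3 genes that tubule cells of the library labelled sham had above leukocytes, and of Lama2 and Nid1, which they had below, are shown to let them be compared. They are the 250 bases before the annotated start, from RefSeq on GRCm38.p6, read 5′ to 3′ on the gene's strand, with capitals marking GGGCGG, the GC box, on either strand and overlapping matches merged.
Lama5 (chr2:180225860-180226109, minus strand): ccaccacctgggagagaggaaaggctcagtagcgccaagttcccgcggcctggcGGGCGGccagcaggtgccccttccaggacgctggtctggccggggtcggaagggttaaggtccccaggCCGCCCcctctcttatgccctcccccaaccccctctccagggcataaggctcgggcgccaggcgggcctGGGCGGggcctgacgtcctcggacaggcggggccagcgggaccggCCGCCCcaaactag
Agrn (chr4:156197489-156197738, minus strand): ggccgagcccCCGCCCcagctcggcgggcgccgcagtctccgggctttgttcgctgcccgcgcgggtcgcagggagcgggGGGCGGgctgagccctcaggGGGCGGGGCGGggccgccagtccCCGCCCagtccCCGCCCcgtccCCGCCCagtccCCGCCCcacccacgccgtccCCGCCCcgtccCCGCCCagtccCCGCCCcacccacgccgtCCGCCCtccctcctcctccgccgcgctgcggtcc
Lamb1 (chr12:31265043-31265292, plus strand): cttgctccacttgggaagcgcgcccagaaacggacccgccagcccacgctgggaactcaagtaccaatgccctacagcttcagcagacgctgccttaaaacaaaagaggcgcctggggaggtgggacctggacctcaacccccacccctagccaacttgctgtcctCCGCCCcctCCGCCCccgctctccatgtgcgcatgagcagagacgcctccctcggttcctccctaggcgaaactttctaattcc
Lama2 (chr10:27616943-27617192, minus strand): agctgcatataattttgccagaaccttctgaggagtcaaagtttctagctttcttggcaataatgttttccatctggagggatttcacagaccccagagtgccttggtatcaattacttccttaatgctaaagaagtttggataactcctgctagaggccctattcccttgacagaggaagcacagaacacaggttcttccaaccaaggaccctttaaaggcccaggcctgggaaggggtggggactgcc
Nid1 (chr13:13437352-13437601, plus strand): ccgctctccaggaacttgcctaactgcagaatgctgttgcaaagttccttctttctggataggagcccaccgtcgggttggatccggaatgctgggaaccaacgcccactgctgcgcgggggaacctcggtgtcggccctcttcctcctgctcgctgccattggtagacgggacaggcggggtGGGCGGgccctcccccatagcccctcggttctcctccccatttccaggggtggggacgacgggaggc
The search found 4 matches in Lama5, 12 in Agrn, 2 in Lamb1, none in Lama2 and 1 in Nid1, and of 32851 such windows 32.7% held at least 1. The share of G and C was 72.4%, 83.6%, 62.0%, 47.2% and 64.4% in the same order, with a median of 52.4% over all windows. The annotated starts differ between sources: that of RefSeq for Lama2 lies 2816 bases inside the GENCODE gene, those for Lamb1 and Nid1 59 and 51 bases inside, and those for Lama5 and Agrn are the same. Of the other genes, Hspg2 had 5 matches and Lamb2 none, with RefSeq starts 34 and 126 bases inside the GENCODE gene. Lama4, Lamc1 and Nid2 were not matched in the promoter table. A match is a description of the letters and not of a bound factor.

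Compared with fibroblasts of the same library, tubule cells labelled sham were at least 2-fold higher for Lama5 and Agrn, 2 of 10 beside 12.6% of 9828 genes, and lower for 6, beside 12.3%: Lama2, Lama4, Lamb2, Lamc1, Nid1 and Nid2. Agrn was at 4.63 times the fibroblast level (4.02 to 5.31), and Nid1 at 0.166 (0.132 to 0.207). Tubule cells of the library labelled UUO were higher for none of 10, beside 14.5% of 10362 genes, and lower for 7, beside 15.6%; these were Lama2, Lama4, Lamb1, Lamb2, Lamc1, Nid1 and Hspg2. At 10 marker UMIs per 10000, which took in 185 tubule cells, the calls ended for all of them but Lama4, with log2 ratios from -0.79 for Lamc1 to -0.21 for Lamb1. The fibroblast markers of those tubule cells were at 17.3% of the fibroblast level, below the ratios of Lama2 (0.297), Nid1 (0.312) and Lamb1 (0.406) and above those of Lama4 (0.126, from 2 UMIs) and Lamc1 (0.127). The share labelled sham was 10.3%.

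Endothelial cells were at least 2-fold higher than fibroblasts for 1 of 10 genes, Lama5, in the library labelled UUO (beside 8.55% of genes, with none lower beside 5.94%) and likewise in the library labelled sham (beside 8.81%), where Lama2 was lower (beside 5.31%), a call at the threshold that was lost under 7 of 16 alternatives. At 10 marker UMIs per 10000 no gene was called higher in either library. Agrn and Hspg2 of the library labelled sham lay at the edge, with ratios of 2.21 (1.79 to 2.71) and 1.95 (1.76 to 2.17) that fell short of 2-fold once 5 CPM was added. Without endothelial cells rich in fibroblast markers, their log2 ratios were 1.18 and 1.08, and the count was 3. Mural cells were higher than fibroblasts for Lama5 and Lamb2 in the library labelled UUO, 2 of 10 beside 12.5%, Lama5 with 4 UMIs only, and for none of 9 in the library labelled sham, beside 4.87%. They were lower for Lama4, Nid1 and Nid2 in the library labelled UUO, beside 10.3%, and for Hspg2 in the library labelled sham, beside 4.73%. Of those 3, the interval left out 1 for Nid1 (0.318, 0.173 to 0.536), beside 4.08% of genes that meet both terms. All 4 lower calls in mural cells ended at 10 marker UMIs per 10000, with log2 ratios of -0.73 for Lama4, -0.61 for Nid1, -0.09 for Nid2 and -0.64 for Hspg2.

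Between the libraries, none of the 9 tested genes differed 2-fold in fibroblasts, in either direction, beside 12.5% of 9622 genes higher and 4.95% lower in the library labelled UUO. Smaller differences, with intervals clear of 1, had Lama2, Lamb2, Lamc1 and both nidogens higher in the library labelled UUO and both proteoglycans lower. The share of all genes tested with an interval clear of 1 is not given here. These differences are therefore not read as a trait of this set of genes. Lamb2 differed most, at 76.4 CPM in the library labelled UUO and 40.4 CPM in the library labelled sham (ratio 1.89, 1.68 to 2.13). Lamc1 followed with 1.49 (1.32 to 1.67), then Nid1 with 1.33 (1.25 to 1.42), Nid2 with 1.26 (1.08 to 1.47; the sign of its log2 ratio turned when cells were thinned to 1000 UMIs) and Lama2 with 1.252 (1.14 to 1.38). Lamb1 was at 1.00. Lama4, at 1.17 (0.971 to 1.40), and Lama5, at 1.27 (0.740 to 2.05) and under 10 CPM in both, had intervals that hold 1. Hspg2 was at 71.6 CPM in the library labelled UUO and 85.6 CPM in the library labelled sham (0.837, 0.741 to 0.943), and Agrn at 14.3 and 20.3 CPM (0.705, 0.531 to 0.920).

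The median log2 ratio over the 9 tested genes was 0.30, against -0.02 over all genes tested. It was -0.049 when every cell was thinned to 1000 UMIs, which gives each cell equal weight and leaves out the shallow ones, and 0.15 when each cell had equal weight at full depth. Fibroblasts of the library labelled UUO had a median of 5022 UMIs and those labelled sham 8136. Both libraries held cells with an Xist UMI and no Y-linked one (124 fibroblasts labelled UUO and 4226 labelled sham) and cells of the opposite kind (227 and 1486). The median log2 ratio was 0.13 within the first kind and 0.38 within the second.

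In endothelial cells both proteoglycans were lower in the library labelled UUO. Agrn had 17.3 CPM from 9 UMIs in the library labelled UUO and 45.0 CPM from 100 UMIs in the library labelled sham (0.384, 0.171 to 0.759), 1 of 10 genes that were 2-fold lower, beside 5.35% of 10051 genes. The call was lost under 6 of 16 alternatives, with a log2 ratio of -1.17 and of -0.63 at 10 marker UMIs per 10000. Hspg2 had a ratio of 0.528 (0.380 to 0.718) and did not pass once 5 CPM was added. None of the 10 was 2-fold higher, beside 12% of genes, and Lama2 came nearest with 1.73 (1.16 to 2.54). The fibroblast markers were at 16.6% of the fibroblast level in endothelial cells of the library labelled UUO and 30.7% in those labelled sham.

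In mural cells Lamb2 was at 2.80 times in the library labelled UUO (1.62 to 4.90), from 34 UMIs in 36 cells against 25 UMIs in 61. The fibroblast markers were at 23.8% of the fibroblast level in mural cells of the library labelled UUO and 70.2% in those labelled sham, and their part in this was not tested. It is 1 of 2 genes past 2-fold, beside 23.3% of 10522 genes, or the single one with an interval clear of 1, beside 8.24%. Lama5, the other, had 4 UMIs in the library labelled UUO and 2 in the library labelled sham (4.12, 0.591 to 45.6). In proximal tubule cells Agrn was at 15.96 CPM in the library labelled UUO and 49.7 CPM in the library labelled sham (0.321, 0.104 to 0.934), 1 of 4 genes of 10 past 2-fold lower, beside 12.7%, and the single one of them with an interval clear of 1, beside 5.74%. Lamb2 was the 1 gene past 2-fold higher, beside 17.9%, from 11 UMIs against 1. In loop and distal tubule cells 3 of 9 genes were past 2-fold higher, beside 26.9%, of which Nid2, described above, had an interval clear of 1, beside 8.95%. Lamb1 was the 1 gene past 2-fold lower (0.445, 0.121 to 1.15), beside 20.8%. None of the 10 was past 2-fold lower in mural cells, beside 12%.

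**Figure D3:**
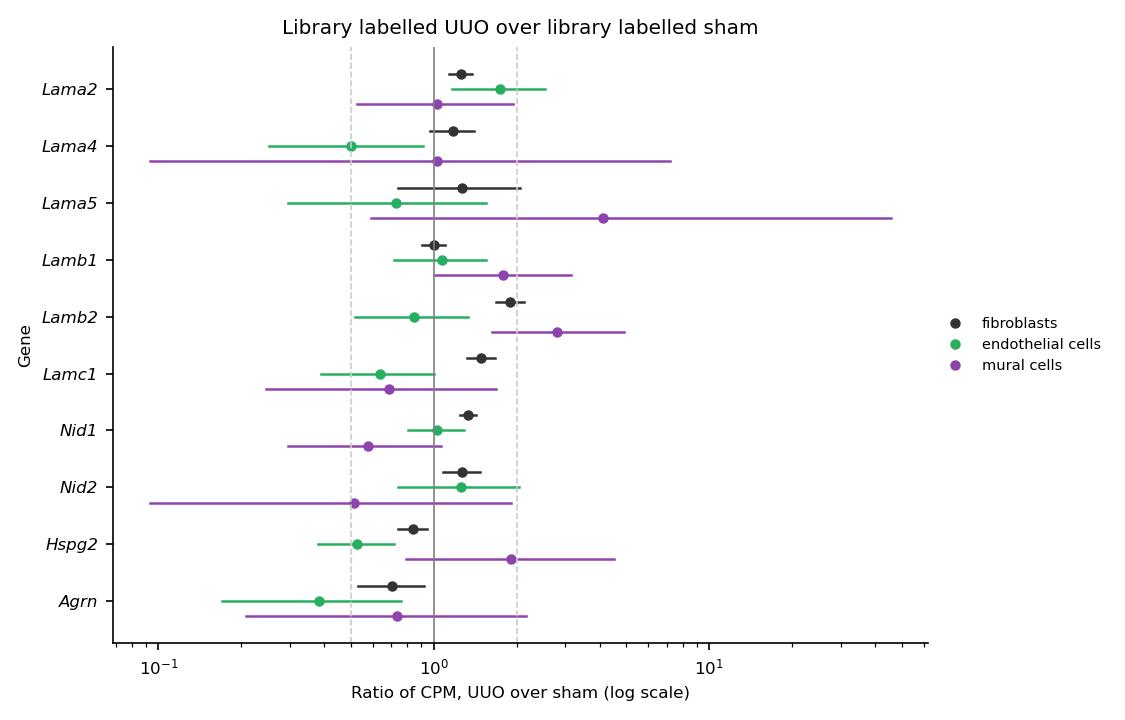
Ratio of the level in the library labelled UUO to that in the library labelled sham, on a log axis, for fibroblasts, endothelial and mural cells, with exact 95% intervals as lines, a solid line at 1 and dashed lines at 0.5 and 2. All fibroblast points lie between 0.705 (Agrn) and 1.89 (Lamb2), and Hspg2 and Agrn of endothelial cells lie at 0.528 and 0.384.

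Within fibroblasts, the genes were compared between the cells with the highest and those with the lowest share of UMIs from contractile genes (Acta2, Tagln, Myl9 and the like), 164 at each end of the ranking in the library labelled UUO and 2104 at each end in the library labelled sham. Each end is a range of a score and not a cell type. None of the contractile transcripts was found in 67 of the 164 lowest-ranked cells labelled UUO and 199 of the 2104 labelled sham. Ties in this and the adventitial ranking were ordered by barcode. Nid2 was higher at the contractile end in both libraries. It had 71.8 CPM in the highest-ranked and 46.1 CPM in the lowest-ranked cells of the library labelled UUO (1.56, 1.05 to 2.32). In the library labelled sham it had 51.9 and 19.7 CPM (2.63, 2.32 to 3.002), 1 of 9 genes past 2-fold higher beside 1.25% of 8556 genes, with none lower beside 0.9%; none was 2-fold higher in the library labelled UUO, beside 8.24%. Rtraf, which overlaps it, had ratios of 0.773 and 1.02 in the libraries labelled UUO and sham, and its part in the Nid2 counts was not tested. Lamb1 was also higher in both, at ratios of 1.42 (1.10 to 1.85) and 1.26 (1.18 to 1.35), and Nid1 and Hspg2 were lower in both, at 0.784 and 0.844 for Nid1 and 0.696 and 0.801 for Hspg2.

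Lama4 ran in opposite directions along this ranking in the 2 libraries. It had 11.04 CPM in the highest-ranked and 54.9 CPM in the lowest-ranked cells of the library labelled UUO (0.201, 0.0915 to 0.398), 1 of 9 genes past 2-fold lower beside 5.03% of 9680. In the library labelled sham it had 31.8 and 21.5 CPM (1.48, 1.30 to 1.70). Lamc1 had ratios of 0.568 (0.407 to 0.786) in the library labelled UUO and 1.10 (1.01 to 1.21) in the library labelled sham. Median depths of the highest- and lowest-ranked cells were 4515.5 and 4965.5 UMIs in the library labelled UUO, and 10036.5 and 7597 in the library labelled sham.

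**Figure D4:**
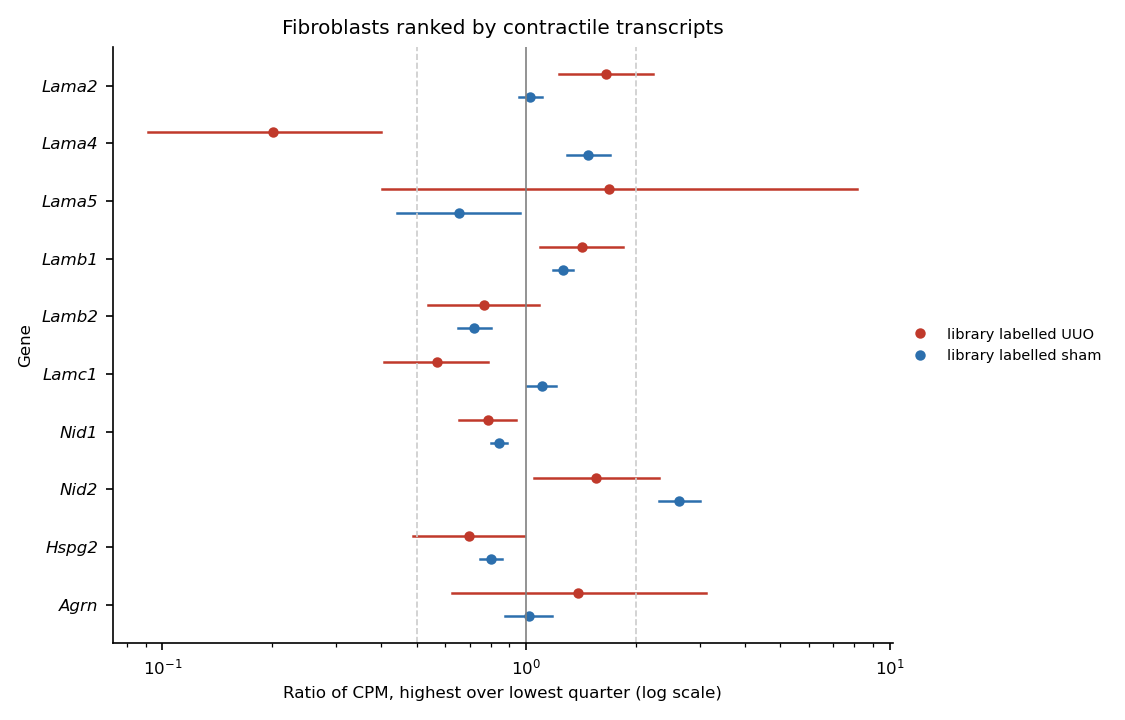
Ratio of the level in the highest-ranked to that in the lowest-ranked fibroblasts, ranked by contractile transcripts, on a log axis, for the libraries labelled UUO and sham, with exact 95% intervals as lines, a solid line at 1 and dashed lines at 0.5 and 2. Nid2 lies right of 1 in both (1.56 and 2.63), while Lama4 lies at 0.201 in the library labelled UUO and 1.48 in the library labelled sham.

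Ranked by adventitial transcripts (Pi16, Clec3b, Dpp4 and the like), Lama4 of the library labelled UUO had 44.1 CPM in the highest-ranked and 14.7 CPM in the lowest-ranked cells (2.996, 1.51 to 6.60), 1 of 9 past 2-fold higher beside 6.03% of 10058 genes. Lamb1 was lower, 71.0 against 168 CPM (0.423, 0.317 to 0.565), beside 13.7%. None of 9 passed in the library labelled sham in either direction, beside 0.853% and 0.38% of 8673 genes; Lama4 had a ratio of 0.735 (0.634 to 0.852) and Lamb1 of 0.818 (0.762 to 0.877). Lamb2 was higher and Nid2 lower at the adventitial end in both libraries, at ratios of 1.69 and 1.32 for Lamb2 and 0.469 and 0.670 for Nid2. Median depths were 6611 and 3265 UMIs in the highest- and lowest-ranked cells of the library labelled UUO, and 7776 and 5038.5 in the library labelled sham. None of the adventitial transcripts was found in 39 of the 164 lowest-ranked cells labelled UUO and in all 2104 labelled sham.

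Of 22 other basement membrane genes 16 were tested in fibroblasts, and 3 were 2-fold higher and 6 lower in the library labelled UUO, beside 12.5% and 4.95% of all genes tested; their median log2 ratio was -0.33, against -0.02 over all genes. Fbln1, a matrix protein of basement membranes and elastic fibres, was 4.24 times higher (4.10 to 4.38), while the basement membrane collagens Col15a1 and Col18a1 were at 0.355 and 0.353. Of 18 receptors of laminin or agrin 14 were tested, with 1 higher and 2 lower beside the same shares: the agrin receptor Lrp4 was at 4.58 (3.60 to 5.77), and the heparan sulfate proteoglycans Sdc1 and Gpc1 at 0.351 and 0.0771. Of 8 other laminin chains and netrins 2 were tested, and the gamma chain Lamc3 was at 3.87 (3.08 to 4.82).

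In tubule cells of the library labelled sham, 7 of 18 tested basement membrane genes were at least 2-fold above fibroblasts and 11 below, and of 15 receptors 5 were above and 6 below, beside 12.6% and 12.3% of all genes tested. The laminin receptor chain Itga6 was at 35.9 times the fibroblast level, the Lama5 receptor Bcam at 14.5, and the tubulointerstitial nephritis antigen Tinag at 102. In mural cells 3 of 15 tested receptors were above fibroblasts and 1 below in the library labelled UUO, beside 12.5% and 10.3% of all genes, and 3 of 14 above and 2 below in the library labelled sham, beside 4.87% and 4.73%. Bcam was at 11.4 and 10.6 times the fibroblast level in the libraries labelled UUO and sham, and the laminin receptor chain Itga7 at 7.79 and 39.5, from 10 and 19 UMIs.

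Across the 8 profiles formed by 4 classes in 2 libraries, the genes most like each of the 10 were found by the Pearson correlation of log2(CPM + 5) among 9717 genes. Profiles of 1 library share its preparation and its free RNA, so these values are descriptions with no test. Nothing on shared function follows from them. Lama2 was most like Rcn3 (0.99), Oaf and Tcf21, the last a fibroblast marker that helped set the classes. Hspg2 was most like Fyn (1.00), Tbc1d4 and Chmp7, and Lama5 most like D1Ertd622e (0.97), Mgat4b and Abhd6. Among the 10 themselves, Lama4 had 0.85 with Hspg2, with Nid1 and with Lamc1, Lama5 had 0.68 with Agrn, and Nid2 had -0.83 with Agrn.

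By the GENCODE M21 annotation of mm10, the 10 genes lie on 8 chromosomes, with Lama2 (chr10:26980036-27619758, minus strand) and Lama4 (chr10:38965515-39110188, plus strand) on chromosome 10, and Hspg2 (chr4:137468769-137570630, plus) and Agrn (chr4:156165290-156197488, minus) on chromosome 4. Lama5 lies at chr2:180176373-180225859 (minus), Lamb1 at chr12:31265234-31329644 (plus), Lamb2 at chr9:108479736-108490530 (plus) and Lamc1 at chr1:153218922-153332786 (minus). Nid1 lies at chr13:13437551-13512269 (plus) and Nid2 at chr14:19751265-19811787 (plus). Lama4, Lamb1, Lamb2 and Agrn overlap no other annotated gene. Besides Nid2, Lama2 and Nid1 overlap predicted genes that reached 17.8 and 18.7 CPM in a class, so a small part of their counts may belong to those.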

How the data were processed

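The deposited values are expected counts of UMIs per cell and gene, made by the authors with alevin of Salmon 0.13.1 on mm10, per the submitters' processing notes. They are not normalized, and 91.2% of the values above 0 labelled UUO and 92.3% of those labelled sham are whole (tolerance 1e-06).

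Cells with at least 500 UMIs, 300 genes and at most 20% mitochondrial UMIs were kept, and cells with the highest scores against simulated doublets (rate 0.06, 2 simulated per cell, 2000 variable genes, 30 components) were removed at 0.8% per 1000 cells, 9 labelled UUO and 908 labelled sham. A cell that met 1 class other than fibroblast got that class, one that met several was mixed (37 and 58 cells labelled UUO and sham), and 81 and 119 met none. Cells within 1.25 times the marker level numbered 21 and 56 of the endothelial class. Fibroblast markers and free RNA were left in. UMIs were summed per class and library, with 95% intervals from the exact Poisson distribution for levels, the exact conditional binomial for ratios and Clopper-Pearson for shares; all cover counting error only. For a level of 0 the interval runs from 0 to its exact upper bound. A gene counts as higher or lower from 2-fold after adding 5 CPM to both levels, if at least 10 CPM in either.

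Members, lists and rules were chosen with earlier results of these data known. All 10 genes are named; of each other list, the genes that may be named in a comparison are the 2 with the largest and the 2 with the smallest log2 ratio, and for likeness of pattern the 3 with the highest correlation, among genes at 20 CPM in a profile and 30 UMIs in all. The comparison with leukocytes was added after seeing the data. The steps were tested on simulated data. Python 3.11.15, numpy 2.4.6, scipy 1.17.1, pandas 2.3.3, scikit-learn 1.9.0 and matplotlib 3.10.9 were used.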

Additional observations from a re-analysis of the deposited data

Results flagged for a closer look

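In 6 cases a difference between classes, or between the ends of a ranking of fibroblasts, ran in opposite directions in the 2 libraries, with both intervals clear of 1. The share of all genes that did so is not given here, so the count is not read as a trait of this set of genes. With 1 library per group the difference between the libraries was not tested, and each interval covers counting error only.

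Lama4 in the highest-ranked over the lowest-ranked fibroblasts by contractile transcripts had a ratio of 0.201 in the library labelled UUO and 1.48 in the library labelled sham. By adventitial transcripts, Lama4 had 2.996 in the library labelled UUO and 0.735 in the library labelled sham. Lamc1 in the contractile ranking had 0.568 in the library labelled UUO and 1.10 in the library labelled sham.

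Lamb2 in endothelial cells over fibroblasts had a ratio of 0.578 in the library labelled UUO and 1.29 in the library labelled sham. Lamc1 in the same comparison had 0.537 in the library labelled UUO and 1.25 in the library labelled sham. Lamb1 in tubule cells over fibroblasts had 0.406 in the library labelled UUO and 1.22 in the library labelled sham, where the tubule class was mostly proximal in the library labelled UUO (91 of 107 cells) and mostly loop and distal in the library labelled sham (207 of 231).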

How the results depend on the processing

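No paired analysis was possible because each group is 1 library and the labels give no replicate numbers; for the same reason no replicate could be left out. Levels rest on UMIs from 36 mural cells and 16 loop and distal tubule cells in the library labelled UUO, where genes with under 10 UMIs have wide intervals. Of the 16 alternatives, that with all barcodes also kept the doublets, and thinning also left out shallow cells and gave cells equal weight; the cause of a change was not tested. Over 2080 values of single genes, 1766 stayed within the spread allowed, 309 moved and 5 were counted as turned round after a 2-fold call. The log2 ratio changed sign in 125, of which 27 were in Xist cells, 21 at marker level 10 and 17 after thinning. The 5 were Lama5 in mural cells over fibroblasts of the library labelled UUO (log2 ratio -1.21 thinned to 1000 UMIs and -1.24 in cells with Xist and no Y-linked UMI), Lamb2 in the same comparison (-4.00 in Xist cells), Lamb2 in mural cells of the library labelled UUO over that labelled sham (-3.24 in Xist cells, which left 2 mural cells labelled UUO), and Nid2 in mural cells over leukocytes (-0.19 without cells rich in fibroblast markers). Lama5 in mural cells, UUO over sham, is not among the 5, though its log2 ratio went from 1.40 to -1.93 in Xist cells. The interval of its ratio held 1 (0.591 to 45.6). The median log2 ratio over the genes in fibroblasts, UUO over sham, was 0.30, and -0.049 after thinning.

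Counts of genes at least 2-fold higher that moved by over 1.5 times are given by comparison. The shares of all genes called under the alternatives are not given, here or above. Whether a changed count differs from the share over all genes under the same alternative can therefore not be judged. Endothelial cells over fibroblasts, UUO, had 1, and 0 at a marker level of 10, with the median of ratios, with a pseudocount of 20 CPM and in Y-linked cells. Endothelial cells over fibroblasts, sham, had 1, but 0 at marker level 10 and at pseudocount 20, 2 with the total without mitochondrial, haemoglobin and ribosomal protein genes and with pseudocount 1, and 3 at marker level 40 and without cells rich in fibroblast markers. Mural cells over fibroblasts had 2, UUO, and 1 after thinning, at pseudocount 20, in Xist and in Y-linked cells. They had 0, sham, and 1 at marker level 40, without cells rich in fibroblast markers and in Xist cells. Tubule cells over fibroblasts, UUO, had 0, and 2 in Xist cells. Fibroblasts, UUO over sham, had 0, and 1 in Y-linked cells. Of 21 calls of a lower level in the comparisons that had alternatives, 17 were lost under at least 1 alternative, 12 of them at marker level 10; the 4 kept under all were Lama4 in tubule cells over fibroblasts, UUO, and Lama2, Nid1 and Nid2 in the same comparison, sham, where Lamb2 was lost under 5, Lama4 under 2 and Lamc1 under 1.

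Comparisons with leukocytes of the library labelled sham, and their alternatives, were added after seeing the data. Here too the counts under alternatives have no share of all genes beside them. Endothelial cells had 7, but 0 at marker level 10, 4 with the median of ratios and 3 at pseudocount 20. Mural cells had 3, but 1 at marker level 10, at pseudocount 20 and in Xist cells, 5 after thinning, 6 in Y-linked cells and 7 at marker level 40. Fibroblasts had 3, but 0 at marker level 10, at pseudocount 20 and in Xist cells, 1 with all barcodes, without doublet removal and with the median of ratios, 5 in Y-linked cells, 6 after thinning, 7 with equal weight of cells and 8 at marker level 40. Tubule cells had 2 or 3 under every alternative tried.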
